A study of Rattus norvegicus with 12 samples.

Results

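Glycolysis and hypoxia response genes were followed through 4 groups of rat heart cells. The set was a list of 35 gene symbols, made of glucose and lactate transporters, glycolytic enzymes, regulators of glycolytic flux, the hypoxia-inducible factors with their oxygen sensors, and other targets of those factors. Rows of the deposited gene table were taken by symbol. This gave 36 rows out of 32545, for 34 of the 35 symbols, because Pkm and Pfkfb4 each had 2 rows and no row was named Egln1. All 36 rows passed the filter on low counts. GS_diff2 were GS cells kept in CMM medium plus EGM2 solution, which the labels tie to differentiation towards cardiomyocytes and endothelial cells. GS_diff1 were GS cells kept in CMM medium, tied to cardiomyocyte differentiation. GS were undifferentiated, immortalized cells made from rat cardiac fibroblasts with viral Sall4 and Gata4. RCF were the untreated, wild-type parental cells and served as controls. Cardiac fibroblasts are the heart's connective tissue cells, which make its collagen. Each group had 3 biological replicates, per the design text, and every culture is labelled as primary cultured heart cells. One label on all 12 samples names viral overexpression of both factors, although genotype and design text give RCF as untreated. The sources used here do not give the oxygen level, the glucose content or the time in each medium, which cannot be told apart from the groups.

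As background, glycolysis breaks glucose down to pyruvate and yields ATP without oxygen, and lactate dehydrogenase turns pyruvate into lactate, which leaves the cell through monocarboxylate transporters. Hypoxia-inducible factors are transcription factors whose alpha subunits are hydroxylated by the oxygen-dependent Egln enzymes and then destroyed. When oxygen is scarce the alpha subunits last, bind DNA at a short core motif, and raise many genes of glucose use, cell survival, vessel growth and collagen processing. Much of this control acts on the protein and is not seen in RNA. The adult heart muscle cell burns mainly fatty acids, whereas fetal heart cells and dividing cells draw more on glycolysis.

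Libraries held 16255682 to 23117864 counts, and levels are given as CPM, which are counts scaled to a common library total with TMM factors, with ± SD over 3 libraries. Sall4 checked the labels: it had 69.6 ± 2.55 CPM in GS_diff2, 225 ± 4.66 CPM in GS_diff1, 246 ± 8.58 CPM in GS and 0 counts in each RCF library. Gata4 had 285 ± 3.89 CPM in GS_diff2, 495 ± 6.96 CPM in GS_diff1, 595 ± 7.21 CPM in GS and 206 ± 3.43 CPM in RCF. The summed level of 10 fibroblast markers was 29920 to 30260 CPM in GS_diff2, 50240 to 51720 CPM in GS_diff1, 42820 to 46130 CPM in GS and 41110 to 44300 CPM in RCF. Col1a1 was the largest part of that sum, with 18140 ± 88.8 CPM in GS_diff2, 34740 ± 1009 CPM in GS_diff1, 24360 ± 820.5 CPM in GS and 28290 ± 462 CPM in RCF. Other fibroblast markers differed from it: Tcf21 was at 0 in each GS_diff2 library and averaged 0.08305 ± 0.105 CPM in GS_diff1, 0.395 ± 0.253 CPM in GS and 18.5 ± 0.583 CPM in RCF, and Dcn averaged 0.418 ± 0.277 CPM in GS_diff2, 0.0703 ± 0.0618 CPM in GS_diff1, 1.002 ± 0.533 CPM in GS and 32.8 ± 1.55 CPM in RCF. Defining markers of the labels' target cell types were in part missing. Myl2 was at 0 in all 12 libraries, Myh7 was at 0 in GS_diff2, GS and RCF, and the endothelial markers Emcn and Cldn5 were at 0 everywhere. Other markers of these types were detected. Of 11 cardiomyocyte markers with a row, only 6 passed the filter on low counts. By the test described below, 5 of these 6 were higher and none lower in GS_diff1 than in GS. Of 9 endothelial markers with a row, only 4 passed the filter on low counts, and 3 of these were higher and none lower there. In GS_diff2 with GS, 3 cardiomyocyte markers were higher and 2 lower, and 1 endothelial marker was higher and 1 lower. Of all genes tested, 32.0% were higher in GS_diff1 than in GS and 33.3% in GS_diff2 than in GS. The 11 cardiomyocyte markers with a row summed to 642 to 665 CPM in GS_diff2, 733 to 756 CPM in GS_diff1, 579 to 605 CPM in GS and 490.5 to 521 CPM in RCF. Nearly all of that sum was Atp2a2, a calcium pump that many cell types express, with 617 ± 10.7 CPM in GS_diff2, 725 ± 14.3 CPM in GS_diff1, 586 ± 13.2 CPM in GS and 492 ± 15.6 CPM in RCF. Tnnt2, the cardiac troponin T, had another order, with 34.1 ± 0.3997 CPM in GS_diff2, 7.66 ± 1.17 CPM in GS_diff1, 1.96 ± 0.0552 CPM in GS and 15.1 ± 0.799 CPM in RCF. All other cardiomyocyte markers were low in GS_diff1, where the highest of them, Pln, averaged 4.83 ± 0.795 CPM. The 9 endothelial markers with a row summed to 17.9 to 19.4 CPM in GS_diff2, 23.9 to 29.1 CPM in GS_diff1, 15.5 to 17.5 CPM in GS and 14.8 to 17.3 CPM in RCF. The 6 epithelial markers summed to 740.0 to 759 CPM in GS_diff2, 2361 to 2382 CPM in GS_diff1, 693.5 to 718.5 CPM in GS and 1.06 to 1.90 CPM in RCF, where Krt18 and Cldn6 were at 0. The 10 leukocyte markers summed to 32.4 to 34.6 CPM in GS_diff2, 16.98 to 18.4 CPM in GS_diff1, 23.9 to 27.5 CPM in GS and 107 to 112 CPM in RCF. Outside RCF most of that sum was Cd14. It averaged 29.4 ± 1.11 CPM in GS_diff2, 14.1 ± 0.898 CPM in GS_diff1, 23.2 ± 2.30 CPM in GS and 17.3 ± 0.767 CPM in RCF. Lyz2 was at 0 in GS_diff2 and GS_diff1, and averaged 0.348 ± 0.194 CPM in GS and 55.8 ± 2.84 CPM in RCF. Adgre1 was at 0 in GS_diff2, GS_diff1 and GS, and Cd3e in GS_diff2, GS and RCF. The 6 smooth muscle markers summed to 395 to 402 CPM in GS_diff2, 2497 to 2541 CPM in GS_diff1, 594 to 627 CPM in GS and 793 to 811 CPM in RCF. None was at 0 in all 3 libraries of a group, although Des was at 0 in GS_diff1 replicate 1. The largest parts of the sum were Acta2 (961 ± 13.7 CPM) and Tagln (1107 ± 16.9 CPM) in GS_diff1, and Smtn (255.5 ± 4.36 CPM) in GS_diff2. The 6 erythroid markers with a row reached at most 2.04 CPM in sum in any library, and Hbb was at 0 in all of them. The part of these other cell types in the results below was not tested.

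The first question was how the genes of glycolysis and the hypoxia response differed between groups. Summed over the glycolytic enzymes, reads were fewest in GS and most in GS_diff2, although single enzymes differed from this order. Reads on the 18 enzyme rows made up 1.13 ± 0.00662% of all counts in GS_diff2, 0.923 ± 0.00951% in GS_diff1, 0.625 ± 0.0207% in GS and 0.886 ± 0.00568% in RCF. With annotated copies of these rows added, an alternative chosen after seeing the data, the shares were 1.25 ± 0.00821% in GS_diff2, 1.02 ± 0.00886% in GS_diff1, 0.681 ± 0.0193% in GS and 0.982 ± 0.00293% in RCF. In bulk RNA, fewer cells of a type and less RNA per cell cannot be told apart.

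Of the 36 rows, 24 were higher and 3 lower in GS_diff2 than in GS, where 67.0% of all 14399 genes tested were called (33.3% higher and 33.7% lower). The members' median log2 difference was 0.63, against -2e-04 over all genes tested. In GS_diff1 compared with GS, 17 rows were higher and 9 lower, beside 64.3% of all genes called, with medians of 0.09 and -0.0024. Between GS_diff2 and GS_diff1, 24 rows were higher and 6 lower in GS_diff2, and 63.7% of all genes were called (32.1% higher). GS set against RCF gave 7 higher and 19 lower rows, with 71.3% of all genes called (36.3% lower), and medians of -0.33 and -0.03. Called means an adjusted p under 0.05 in edgeR's quasi-likelihood test, with Benjamini-Hochberg adjustment over all genes tested. The share of members called in either direction was 75% in GS_diff2 with GS, 72.22% in GS_diff1 with GS, 83.33% in GS_diff2 with GS_diff1 and 72.22% in GS with RCF. Most genes of these cells differed between the groups, so a call alone sets few members apart, and the direction and size are what is described below. Changes of at least 2-fold were fewer: 6 members were higher and 1 lower in GS_diff2 with GS (11.3% and 10.2% of all genes tested), 1 and 2 in GS_diff1 with GS (8.38% and 9.79%), 6 and 1 in GS_diff2 with GS_diff1 (10.7% and 8.31%), and 6 and 1 in GS with RCF (14.2% and 11.7%). All comparisons with GS share its 3 libraries. The heatmap and the plot of fold changes show each row, with the groups of genes set apart by lines.

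**Figure D1:**
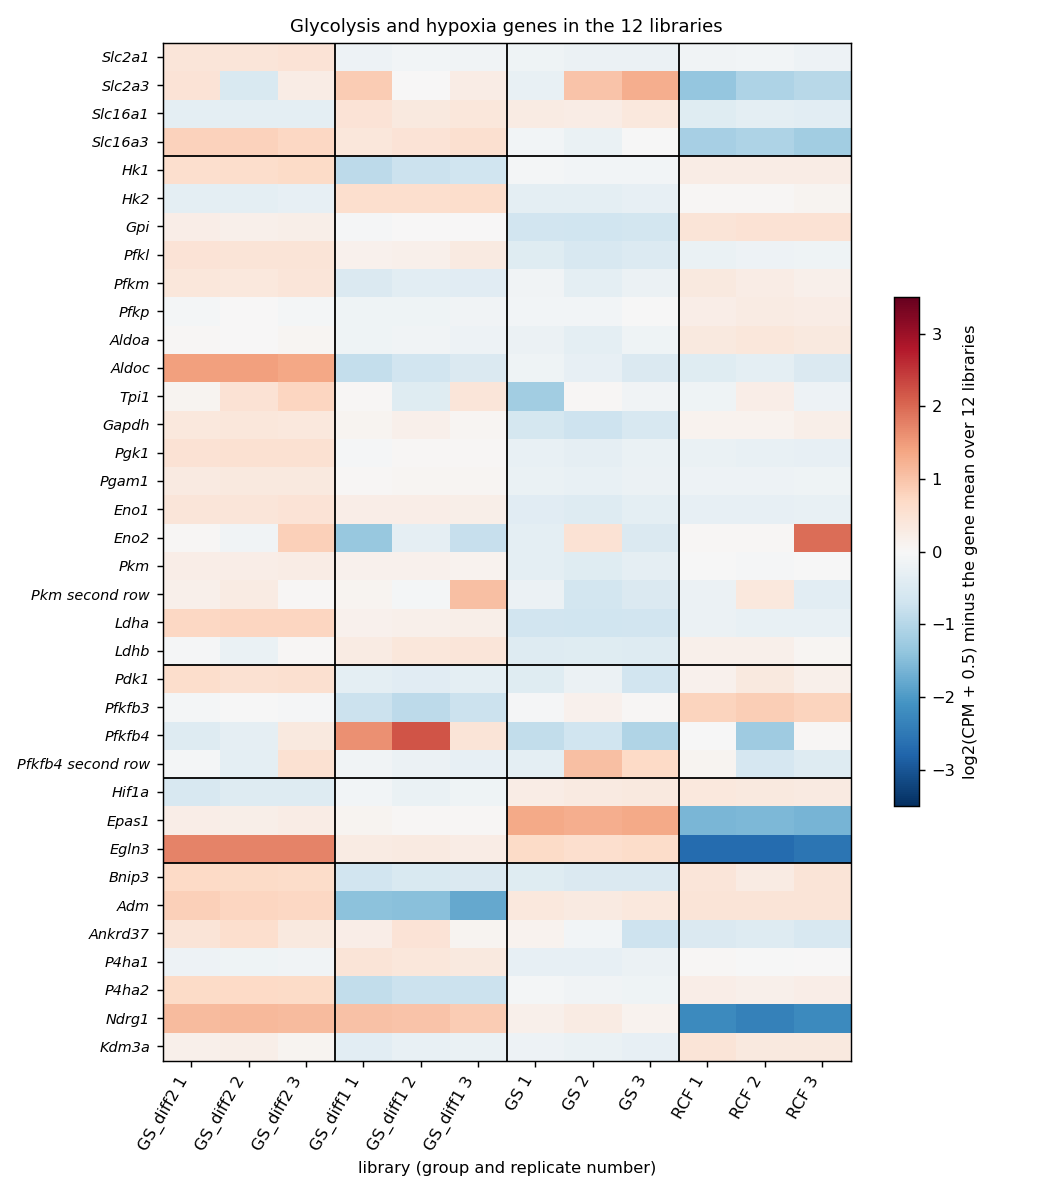
Each cell gives log2(CPM + 0.5) of a gene in 1 library minus the gene's mean over the 12 libraries, with genes in rows by role and the libraries of GS_diff2, GS_diff1, GS and RCF in columns from left to right. Egln3 and Ndrg1 are lowest in the 3 RCF libraries, Adm is lowest in the 3 GS_diff1 libraries, and Aldoc, Gapdh and Ldha are highest in the 3 GS_diff2 libraries.

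**Figure D2:**
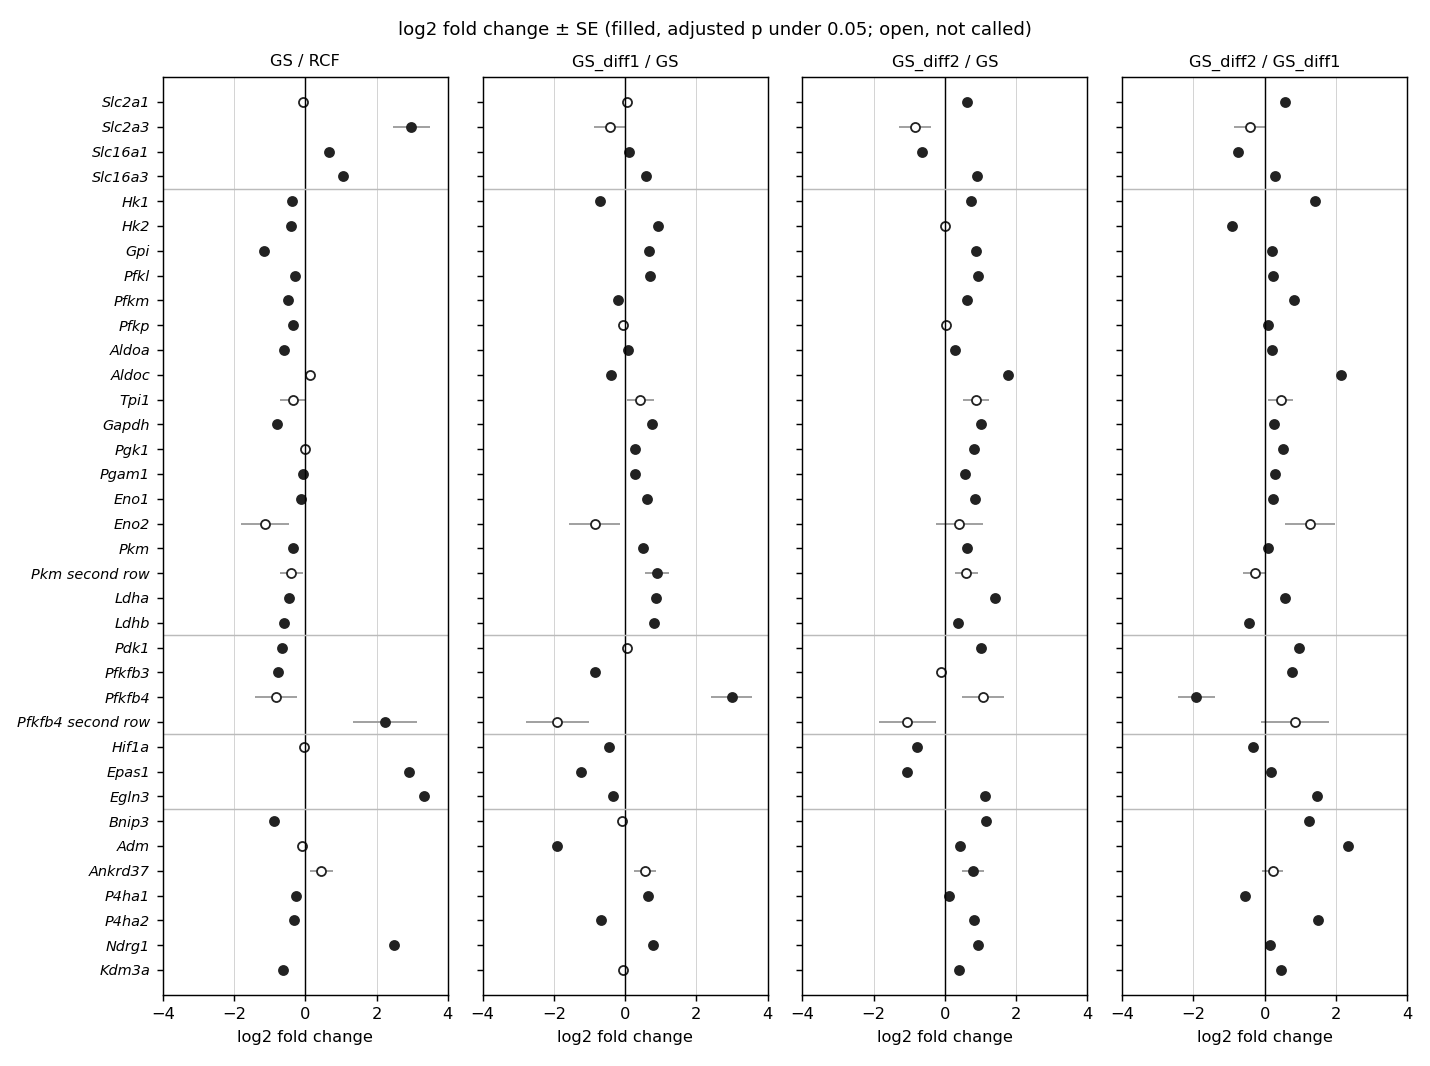
Points give the log2 fold change of each row and lines its standard error, in 4 panels for GS over RCF, GS_diff1 over GS, GS_diff2 over GS and GS_diff2 over GS_diff1, with filled points for an adjusted p under 0.05. Every filled glycolytic enzyme lies left of 0 in GS over RCF and right of 0 in GS_diff2 over GS.

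A total of 6 rows were called and at least 2-fold higher in GS_diff2 than in GS, where 11.3% of all genes tested were. They were Aldoc, Bnip3, Egln3, Gapdh, Ldha and Pdk1. Their promoters are shown because these are the members with the larger rises in that comparison, where the 2-fold rule fixes their shared direction, and because hypoxia-inducible factors bind the cores ACGTG and GCGTG. They did not all share a direction in GS_diff1 with GS or in GS with RCF. Each window, from RefSeq with the GRCr8 build, runs from 250 bases before to 50 bases after the gene's annotated start and is read 5′ to 3′ along the gene. Capitals mark every match to ACGTG or GCGTG on either strand, which reads CACGT or CACGC where the match lies on the other strand. A CACGTG holds a match on each strand.
Aldoc (chr10:63715294-63715593, plus strand): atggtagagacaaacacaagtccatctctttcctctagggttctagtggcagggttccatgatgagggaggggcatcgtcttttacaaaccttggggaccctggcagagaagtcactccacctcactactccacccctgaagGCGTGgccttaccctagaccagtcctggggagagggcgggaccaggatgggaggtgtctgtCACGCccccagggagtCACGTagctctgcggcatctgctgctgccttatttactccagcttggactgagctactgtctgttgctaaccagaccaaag
Bnip3 (chr1:203154913-203155212, minus strand): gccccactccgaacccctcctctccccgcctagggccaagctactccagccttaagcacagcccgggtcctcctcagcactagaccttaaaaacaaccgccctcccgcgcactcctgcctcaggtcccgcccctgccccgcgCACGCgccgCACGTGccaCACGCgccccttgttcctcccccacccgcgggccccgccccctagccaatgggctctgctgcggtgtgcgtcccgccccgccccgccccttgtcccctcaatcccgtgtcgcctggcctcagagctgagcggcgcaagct
Egln3 (chr6:77410966-77411265, minus strand): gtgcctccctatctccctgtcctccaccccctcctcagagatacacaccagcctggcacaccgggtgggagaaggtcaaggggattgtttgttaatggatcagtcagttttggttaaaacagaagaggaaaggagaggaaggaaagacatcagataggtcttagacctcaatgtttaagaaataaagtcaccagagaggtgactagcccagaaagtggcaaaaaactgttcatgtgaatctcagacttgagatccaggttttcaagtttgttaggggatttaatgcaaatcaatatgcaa
Gapdh (chr4:159652418-159652717, minus strand): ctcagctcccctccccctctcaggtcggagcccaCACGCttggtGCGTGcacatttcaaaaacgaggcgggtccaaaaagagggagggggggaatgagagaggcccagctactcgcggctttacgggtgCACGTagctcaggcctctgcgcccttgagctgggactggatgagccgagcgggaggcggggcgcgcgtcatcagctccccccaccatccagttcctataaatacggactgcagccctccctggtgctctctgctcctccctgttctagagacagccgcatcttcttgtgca
Ldha (chr1:106507842-106508141, plus strand): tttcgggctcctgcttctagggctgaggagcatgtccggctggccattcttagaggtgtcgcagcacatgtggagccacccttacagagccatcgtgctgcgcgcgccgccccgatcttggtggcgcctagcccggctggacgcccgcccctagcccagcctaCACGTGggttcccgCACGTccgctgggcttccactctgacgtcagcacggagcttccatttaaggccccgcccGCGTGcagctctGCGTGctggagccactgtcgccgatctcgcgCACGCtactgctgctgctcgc
Pdk1 (chr3:77113264-77113563, plus strand): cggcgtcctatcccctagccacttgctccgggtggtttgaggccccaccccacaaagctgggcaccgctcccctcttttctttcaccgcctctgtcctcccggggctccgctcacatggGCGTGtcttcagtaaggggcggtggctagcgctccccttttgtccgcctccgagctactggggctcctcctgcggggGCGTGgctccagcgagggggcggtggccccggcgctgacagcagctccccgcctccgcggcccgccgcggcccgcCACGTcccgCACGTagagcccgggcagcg
Ldha held 6 matches, at -87, -86, -73, -14, -2 and 30 from the start, with the pair at -87 and -86 in a single CACGTG. Bnip3 held 4 matches between -108 and -90, also with a CACGTG. Pdk1 had 4 matches, Aldoc 3 and Gapdh 3, and the Egln3 window had none, so 5 of the 6 windows held at least 1. Members lower in GS_diff2 than in GS held matches too. The Slc16a1 window had 4 and the Hif1a window 3, each with a CACGTG, and the Epas1 window had none. Of all 35 symbols, 32 matched a window by symbol, giving 37 windows, because some genes have several annotated starts. A match was present in 25 of them (67.6%), against 41.6% of all 33469 rat windows of the same length. ACGTG alone was in 20 windows (54.1%), against 19.3% of all. Base composition differed along with this: the median window held 23 CpG among the members and 7 among all windows, and its part in the share of matches was not tested. Each match is a run of letters in a window, and the files hold no measurement of binding.

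Glucose enters through Slc2a1, the widespread glucose transporter GLUT1 (ENSRNOG00000007284, chromosome 5, 138154673 to 138182897, plus strand, in Rnor_6.0, as are all gene positions here). Slc2a1 had 144, 144 and 149 CPM in GS_diff2, 94.9, 100.1 and 98.3 CPM in GS_diff1, 96.05, 92.6 and 93.4 CPM in GS and 98.9, 100.5 and 93.7 CPM in RCF. Only the GS_diff2 libraries stood apart, above all 9 others. The level in GS_diff2 was 1.55-fold that in GS (log2 0.63 ± 0.041, adjusted p = 2.39e-14) and 1.49-fold that in GS_diff1 (adjusted p = 2.11e-13). GS_diff1 with GS was not called (adjusted p = 0.246), nor was GS with RCF (log2 -0.05 ± 0.041, adjusted p = 0.238), but on library totals alone Slc2a1 was called lower in GS than RCF (log2 -0.15, adjusted p = 0.0014) and higher in GS_diff1 than in GS (log2 0.12, adjusted p = 0.0142). Slc2a3, the high-affinity transporter GLUT3, was close to the detection limit, with 39, 17 and 32 counts in GS_diff2, 60, 26 and 29 counts in GS_diff1, 22, 54 and 60 counts in GS and 5, 7 and 9 counts in RCF. Its levels were 2.02, 0.744 and 1.67 CPM in GS_diff2, 2.85, 1.31 and 1.68 CPM in GS_diff1, 1.01, 3.12 and 3.86 CPM in GS and 0.211, 0.359 and 0.426 CPM in RCF. The RCF libraries lay below the others, and GS was called higher than RCF (log2 2.98 ± 0.52, adjusted p = 1.87e-05). A second row on chromosome 4 (155752447 to 155763500), described by the table as the same protein, held 766 counts in GS replicate 2 alone and 1825 counts in all, 507% of the member's total. With that row added, an alternative chosen after seeing the data, the call ended (log2 2.17, adjusted p = 0.195), and so did those of GS_diff1 with RCF (log2 0.99, adjusted p = 0.541) and GS_diff2 with RCF (log2 0.45, adjusted p = 0.793). Slc2a3 is therefore uncertain. GS_diff2 with GS was not called for it (log2 -0.84 ± 0.44, adjusted p = 0.0993), and was without GS replicate 1 (log2 -1.25, adjusted p = 0.0108).

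The proton-linked lactate transporters moved in opposite directions in GS_diff2. Slc16a3, the exporter MCT4 of strongly glycolytic cells (ENSRNOG00000036677, chromosome 10, 110138586 to 110148358, plus strand), averaged 116 ± 4.21 CPM in GS_diff2, 94.3 ± 4.84 CPM in GS_diff1, 62.4 ± 4.47 CPM in GS and 30.1 ± 1.497 CPM in RCF. The groups did not overlap at any step. Slc16a3 was 2.07-fold higher in GS than in RCF (log2 1.05 ± 0.059, adjusted p = 6.64e-16), 1.51-fold higher in GS_diff1 than in GS and 1.86-fold higher in GS_diff2 than in GS (adjusted p = 5.75e-15). GS_diff2 also exceeded GS_diff1, by 1.23-fold (adjusted p = 1.46e-05). Slc16a1, the MCT1 carrier that moves lactate in either direction, had 128, 129 and 129 CPM in GS_diff2, 226, 205 and 212 CPM in GS_diff1, 197, 193 and 208 CPM in GS and 121, 129 and 126 CPM in RCF. GS_diff2 and RCF were low and overlapped, while GS_diff1 and GS were high and overlapped. Slc16a1 was 1.59-fold higher in GS than in RCF (adjusted p = 1.77e-15) and 1.55-fold lower in GS_diff2 than in GS (log2 -0.63 ± 0.039, adjusted p = 9.07e-15), and 1.67-fold lower in GS_diff2 than in GS_diff1 (adjusted p = 2.27e-16). GS_diff1 was called 1.08-fold higher than GS (adjusted p = 0.0187), a call that ended without GS_diff1 replicate 1 (log2 0.07, adjusted p = 0.149) and without GS replicate 2 (log2 0.09, adjusted p = 0.0549). Per kb of gene length, Slc16a3 made up 51.05 ± 0.951% of the pair in GS_diff2, 33.8 ± 1.98% in GS_diff1, 26.6 ± 0.849% in GS and 21.8 ± 0.843% in RCF.

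Glycolytic enzymes were followed in the order of the pathway. None of the 18 rows was higher in GS than in RCF, and 13 were lower. In GS_diff1 compared with GS, 12 were higher and 3 lower. GS_diff2 had 13 higher and none lower than GS, and 13 higher and 2 lower than GS_diff1. The share of the 18 rows called was 72.22% in GS with RCF, beside 71.3% of all genes tested. It was 83.33% beside 64.3% in GS_diff1 with GS, 72.22% beside 67.0% in GS_diff2 with GS and 83.33% beside 63.7% in GS_diff2 with GS_diff1. The medians of the 18 rows were 0.68 on the log2 scale for GS_diff2 with GS, 0.47 for GS_diff1 with GS and -0.38 for GS with RCF, beside all-gene medians of -2e-04, -0.0024 and -0.03. These changes were mostly small: 3 rows in GS_diff2 with GS, none in GS_diff1 with GS and 1 in GS with RCF passed 2-fold. On library totals alone, the median of all genes in GS with RCF was -0.13 and Pgk1 was also called lower in GS (log2 -0.12, adjusted p = 0.000446).

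Hexokinases, which trap glucose in the cell as its phosphate, changed in opposite directions between media. Hk1, the widespread form (ENSRNOG00000046891, chromosome 20, 31912262 to 31956649, minus strand), had 166, 170.2 and 174 CPM in GS_diff2, 58.4, 65.4 and 67.4 CPM in GS_diff1, 104, 102 and 103 CPM in GS and 133, 132 and 133 CPM in RCF. Every GS_diff2 library lay above, and every GS_diff1 library below, all others. Hk1 was 1.65-fold higher in GS_diff2 than in GS (log2 0.72 ± 0.043, adjusted p = 2.58e-15), 1.62-fold lower in GS_diff1 than in GS (log2 -0.70 ± 0.045, adjusted p = 2.5e-14) and 2.68-fold higher in GS_diff2 than in GS_diff1 (adjusted p = 3.15e-22). Hk2, the insulin- and hypoxia-responsive form of muscle and tumour cells (ENSRNOG00000006116, chromosome 4, 113559427 to 113610243, minus strand), had 99.99, 102 and 104 CPM in GS_diff2, 191, 191 and 197 CPM in GS_diff1, 99.9, 102 and 104 CPM in GS and 133, 130.4 and 137 CPM in RCF. Here GS_diff1 was the high group, and GS_diff2 and GS overlapped. Hk2 was 1.89-fold higher in GS_diff1 than in GS (log2 0.92 ± 0.037, adjusted p = 2.85e-19), 1.89-fold lower in GS_diff2 than in GS_diff1 (adjusted p = 2.3e-19) and 1.31-fold lower in GS than RCF (adjusted p = 1.71e-10). GS_diff2 with GS was not called for Hk2 (log2 0.00, adjusted p = 0.989), except on library totals alone (log2 0.09, adjusted p = 0.0487). Per kb of gene length, Hk1 held 77.1, 77.2 and 77.2% of the pair's counts in GS_diff2, 38.2, 40.98 and 40.97% in GS_diff1, 67.9, 67.1 and 66.7% in GS and 67.05, 67.3 and 66.2% in RCF. On that scale Hk2 was the larger share in GS_diff1 and the smaller one in the other groups, with SDs of 0.0798 to 1.58 percentage points within groups. Without length scaling, Hk1 held 50.34% in GS and 49.88% in RCF, so the order of the pair in these 2 groups rests on the scaling.

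The next steps rearrange the sugar and commit it to the pathway. Gpi, glucose-6-phosphate isomerase, had 370.1, 356 and 368 CPM in GS_diff2, 305, 318 and 318 CPM in GS_diff1, 198, 194 and 202 CPM in GS and 434, 446 and 448 CPM in RCF. No groups overlapped, and GS was lowest. Gpi showed the largest fall of any enzyme called in GS compared with RCF, 2.24-fold (log2 -1.16 ± 0.031, adjusted p = 4.17e-24), and was 1.59-fold higher in GS_diff1 and 1.84-fold higher in GS_diff2 than in GS. Phosphofructokinase, the committed step of glycolysis, is encoded by 3 genes. Pfkl, the liver-type form, was higher in both media: 268 ± 2.67 CPM in GS_diff2 and 228 ± 15.2 CPM in GS_diff1, against 140 ± 6.31 CPM in GS (adjusted p = 8.49e-18 and 9.49e-15). Pfkm, the muscle form, averaged 75.9 ± 0.924 CPM in GS_diff2, 42.7 ± 2.11 CPM in GS_diff1, 48.96 ± 3.57 CPM in GS and 68.3 ± 3.88 CPM in RCF. It was 1.55-fold higher in GS_diff2 than in GS (adjusted p = 1.08e-10), while its 1.15-fold fall in GS_diff1 (adjusted p = 0.00547) lost its call without GS replicate 1 (log2 -0.14, adjusted p = 0.073). Pfkp, the platelet form, averaged 142 ± 4.46 CPM in GS_diff2, 133 ± 0.535 CPM in GS_diff1, 139 ± 4.46 CPM in GS and 175 ± 3.78 CPM in RCF, and was 1.26-fold lower in GS than RCF (adjusted p = 2.93e-09). Its 1.07-fold higher level in GS_diff2 than in GS_diff1 (adjusted p = 0.0344) was not called without GS_diff2 replicate 2 (log2 0.07, adjusted p = 0.186), without any 1 of the GS_diff1 libraries (log2 0.08 to 0.09) or without GS replicate 1 (log2 0.08). Of the length-scaled counts of these 3 genes, Pfkl held 52.3 ± 0.654% in GS_diff2, 52.9 ± 1.46% in GS_diff1, 39.4 ± 0.8801% in GS and 38.1 ± 0.957% in RCF.

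Aldolases split the sugar. Aldoa, the muscle and general form, averaged 1064 ± 20.99 CPM in GS_diff2, 926 ± 16.1 CPM in GS_diff1, 877 ± 56.8 CPM in GS and 1333 ± 17.3 CPM in RCF, and was 1.52-fold lower in GS than RCF (adjusted p = 2.61e-14). It was 1.21-fold higher in GS_diff2 than in GS (adjusted p = 6.21e-08). Its 1.06-fold difference in GS_diff1 with GS (adjusted p = 0.0405) lost its call when GS_diff2 replicate 1, GS_diff1 replicate 1 or 2, GS replicate 2 or any RCF library was left out (log2 0.04 to 0.08). Aldoc, the brain form and a hypoxia target in several cell types (ENSRNOG00000011452, chromosome 10, 65586504 to 65590126, plus strand), had 41.4, 41.8 and 39.4 CPM in GS_diff2, 8.13, 9.17 and 10.3 CPM in GS_diff1, 13.4, 12.3 and 10.4 CPM in GS and 11.1, 11.6 and 10.4 CPM in RCF. The GS_diff2 libraries were above all others, and GS and RCF overlapped. Aldoc was 3.39-fold higher in GS_diff2 than in GS (log2 1.76 ± 0.10, adjusted p = 1.77e-15) and 4.45-fold higher than in GS_diff1 (adjusted p = 2.4e-17). It was 1.31-fold lower in GS_diff1 than in GS (adjusted p = 0.00233). Even in GS_diff2 it made up 3.54 ± 0.171% of the length-scaled counts of both aldolase genes, with 0.942 ± 0.121% in GS_diff1, 1.30 ± 0.208% in GS and 0.787 ± 0.0339% in RCF.

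Tpi1, triose-phosphate isomerase, stood out by its low level. It averaged 15.7 ± 3.62 CPM in GS_diff2, 11.6 ± 3.42 CPM in GS_diff1, 8.65 ± 3.69 CPM in GS and 10.9 ± 1.904 CPM in RCF, with no call in any comparison. Rows elsewhere described as the same protein held 539% of its counts, so the split of reads between copies leaves Tpi1 uncertain. With 3 such rows added, the level was 90.2 ± 34.2 CPM in GS_diff2, 75.4 ± 25.3 CPM in GS_diff1, 51.7 ± 23.4 CPM in GS and 73.2 ± 31.9 CPM in RCF. In GS_diff2 with GS (log2 0.87 ± 0.37, adjusted p = 0.0641) it passed the threshold in DESeq2 (log2 0.86, adjusted p = 0.0312), limma-voom (log2 1.03, adjusted p = 0.00471), with library totals only (log2 0.96) and without GS replicate 2 (log2 1.13, adjusted p = 0.044).

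The lower steps, which make ATP and NADH, held the most abundant members. Gapdh, glyceraldehyde-3-phosphate dehydrogenase and a common loading control (ENSRNOG00000018630, chromosome 4, 157676595 to 157679962, minus strand), had 1403, 1427 and 1406 CPM in GS_diff2, 1160, 1226 and 1132 CPM in GS_diff1, 702, 653 and 729 CPM in GS and 1170, 1175 and 1244 CPM in RCF. GS lay below all other libraries, GS_diff2 above them, and GS_diff1 overlapped RCF. Gapdh was 2.03-fold higher in GS_diff2 than in GS (log2 1.02 ± 0.036, adjusted p = 1.01e-15), 1.69-fold higher in GS_diff1 than in GS (log2 0.76 ± 0.036, adjusted p = 1.93e-13) and 1.72-fold lower in GS than RCF (log2 -0.78 ± 0.036, adjusted p = 7.34e-14). A further 17 rows described as the same protein held 58.9% as many counts. With them added, Gapdh levels were 2232 ± 48.0 CPM in GS_diff2, 1864 ± 64.9 CPM in GS_diff1, 1109 ± 28.8 CPM in GS and 1909 ± 24.2 CPM in RCF, and the calls kept their side of the threshold. Pgk1, phosphoglycerate kinase, averaged 976 ± 9.96 CPM in GS_diff2, 679.8 ± 22.5 CPM in GS_diff1, 558 ± 14.7 CPM in GS and 565 ± 7.81 CPM in RCF, and was 1.75-fold higher in GS_diff2 than in GS (adjusted p = 5.79e-21). Pgam1, phosphoglycerate mutase, averaged 921 ± 10.8 CPM in GS_diff2, 760 ± 5.01 CPM in GS_diff1, 622 ± 15.3 CPM in GS and 651 ± 10.2 CPM in RCF. Its 1.05-fold fall in GS against RCF (adjusted p = 0.0262) lost its call without GS replicate 1 (log2 -0.07), GS replicate 2 (log2 -0.05) or RCF replicate 3 (log2 -0.06).

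Enolase and pyruvate kinase complete the pathway. Eno1, the general enolase, averaged 1616 ± 22.5 CPM in GS_diff2, 1386 ± 9.59 CPM in GS_diff1, 904 ± 37.6 CPM in GS and 981 ± 8.81 CPM in RCF. It was 1.79-fold higher in GS_diff2 and 1.53-fold higher in GS_diff1 than in GS (adjusted p = 4.82e-22 and 1.39e-18). Eno2, the neuronal enolase, had 68, 70 and 123 counts in GS_diff2, 22, 52 and 30 in GS_diff1, 56, 86 and 35 in GS and 83, 68 and 307 in RCF. RCF replicate 3 stood apart there, and a copy of the row held 74.6% as many counts. None of the 4 comparisons above called Eno2, while GS_diff2 with GS_diff1 (log2 1.26 ± 0.70, adjusted p = 0.148) was called without RCF replicate 3 (log2 1.26, adjusted p = 0.00619). Pkm, pyruvate kinase of muscle and dividing cells, averaged 2083 ± 11.6 CPM in GS_diff2, 1943 ± 25.99 CPM in GS_diff1, 1365 ± 47.8 CPM in GS and 1728 ± 24.2 CPM in RCF on its chromosome 8 row. It was 1.53-fold higher in GS_diff2 than in GS (adjusted p = 2.42e-19), and its splice forms are not separated in a gene table. The second row named Pkm, on chromosome 20, had 60.96, 65.5 and 55.2 CPM in GS_diff2, 58.1, 51.2 and 113 CPM in GS_diff1, 46.97, 34.1 and 37.97 CPM in GS and 46.4, 69.1 and 41.5 CPM in RCF. GS_diff1 replicate 3 was the high library. The second row of Pkm was called higher in GS_diff1 than in GS (log2 0.89 ± 0.33, adjusted p = 0.0427), and the call ended without that library (log2 0.46, adjusted p = 0.136) and without any 1 of 7 others, namely each GS_diff2 library, each GS library and RCF replicate 1 (log2 0.80 to 1.04). In GS_diff2 with GS (log2 0.60 ± 0.33, adjusted p = 0.142) that row was called without GS_diff1 replicate 3 (adjusted p = 0.0372).

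Lactate dehydrogenase closes the pathway, and among the enzymes only Aldoc rose more than Ldha in GS_diff2 compared with GS. Ldha, the form that favours lactate production (ENSRNOG00000013009, chromosome 1, 102900286 to 102909707, plus strand), had 1742, 1786 and 1789 CPM in GS_diff2, 1182, 1214 and 1219 CPM in GS_diff1, 667, 652 and 671 CPM in GS and 925, 896 and 893 CPM in RCF. No groups overlapped. Ldha was 2.67-fold higher in GS_diff2 than in GS (log2 1.42 ± 0.026, adjusted p = 2.56e-28) and 1.82-fold higher in GS_diff1 than in GS (log2 0.86 ± 0.025, adjusted p = 8.11e-23). It was 1.47-fold higher in GS_diff2 than in GS_diff1 (adjusted p = 3.28e-18) and 1.36-fold lower in GS than RCF (log2 -0.45 ± 0.025, adjusted p = 5.71e-16). Ldhb, the heart form that favours pyruvate, had 61.7, 54.1 and 65.7 CPM in GS_diff2, 78.2, 83.9 and 85.9 CPM in GS_diff1, 46.2, 47.5 and 46.9 CPM in GS and 71.8, 71.9 and 67.02 CPM in RCF. It was highest in GS_diff1 and lowest in GS, with RCF and GS_diff2 between them and no overlap between groups. Ldhb was 1.29-fold higher in GS_diff2 than in GS (adjusted p = 5.46e-06), 1.76-fold higher in GS_diff1 than in GS (adjusted p = 6.88e-13), 1.37-fold lower in GS_diff2 than in GS_diff1 (adjusted p = 1.01e-07) and 1.5-fold lower in GS than RCF (adjusted p = 8.61e-10). As a share of both genes per kb, Ldhb was 3.92 ± 0.374% in GS_diff2, 7.57 ± 0.227% in GS_diff1, 7.78 ± 0.196% in GS and 8.48 ± 0.261% in RCF. Per kb of gene length, Gapdh had the highest level of the 36 rows in every group, at 1409 ± 13.1 CPM per kb in GS_diff2 and 693 ± 38.3 CPM per kb in GS. Ldha ranked 2 of 36 in GS_diff2 (1108 ± 16.6 CPM per kb), 3 in GS_diff1, 5 in GS (414 ± 6.44 CPM per kb) and 4 in RCF.

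**Figure D3:**
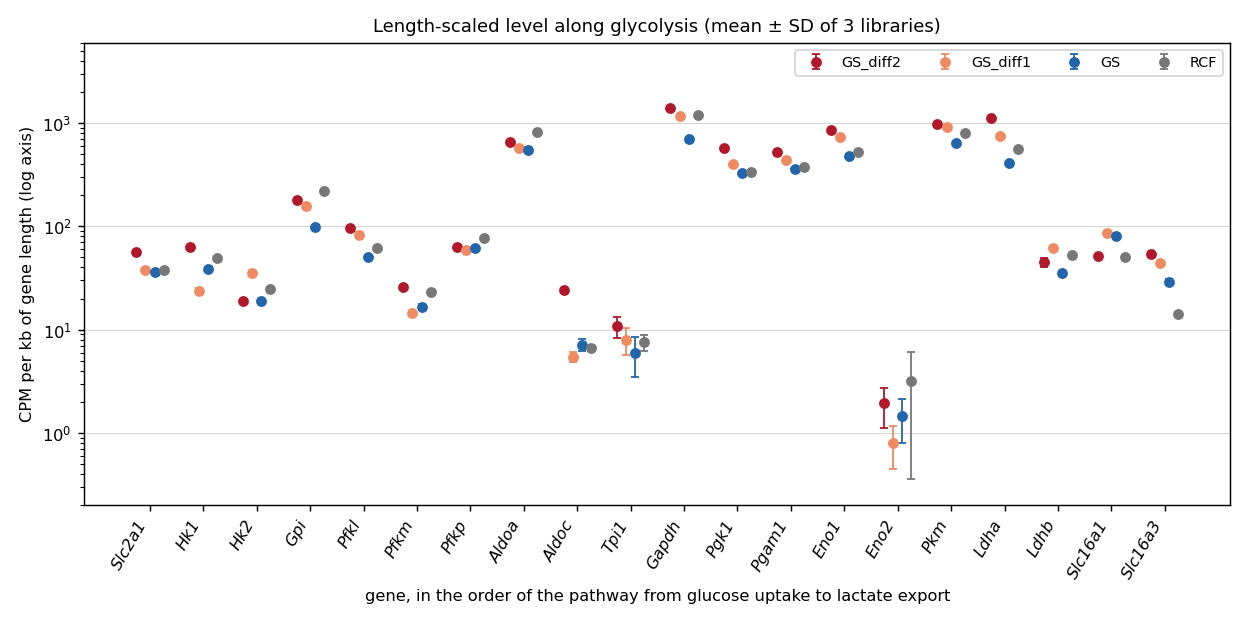
Mean CPM per kb of gene length on a log axis, with bars for the SD of 3 libraries, for the genes from glucose uptake to lactate export in pathway order, with the 4 groups side by side. Gapdh is highest in all groups, and GS lies at or below the other groups for Gpi, Gapdh, Eno1, Pkm and Ldha.

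**Figure D4:**
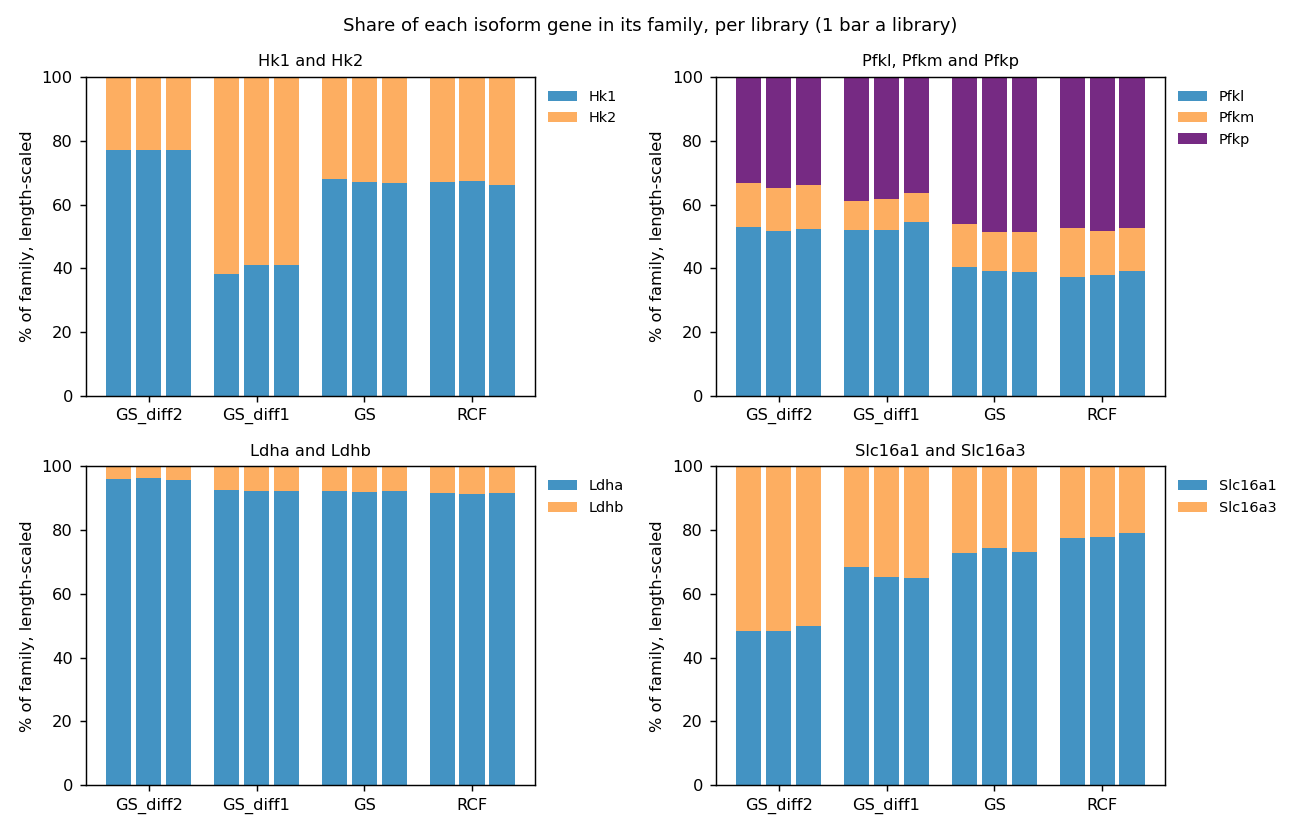
Stacked bars give the percentage of length-scaled counts held by each gene of a family, with 1 bar for each library, in the groups GS_diff2, GS_diff1, GS and RCF from left to right. Hk1 holds 38.3% to 41.0% of the hexokinase pair in GS_diff1 and 66.2% to 77.3% in the other libraries.

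Regulators of glycolytic flux followed no common direction. Pdk1, the kinase that keeps pyruvate out of the mitochondrial pathway, averaged 38.5 ± 0.907 CPM in GS_diff2, 19.9 ± 0.4704 CPM in GS_diff1, 19.1 ± 3.19 CPM in GS and 30.1 ± 2.18 CPM in RCF. It was 2.02-fold higher in GS_diff2 than in GS (log2 1.01 ± 0.090, adjusted p = 3.65e-11) and 1.57-fold lower in GS than RCF (adjusted p = 2.28e-07), while GS_diff1 with GS was not called (adjusted p = 0.589). Pfkfb3, whose product makes the strongest activator of phosphofructokinase, had 40.02, 41.5 and 40.7 CPM in GS_diff2, 25.1, 22.3 and 24.8 CPM in GS_diff1, 41.1, 46.7 and 43.1 CPM in GS and 73.5, 76.8 and 72.6 CPM in RCF. RCF was highest and GS_diff1 lowest, and GS_diff2 overlapped GS. Pfkfb3 was 1.81-fold lower in GS_diff1 than in GS (log2 -0.86 ± 0.066, adjusted p = 1.58e-12), 1.704-fold lower in GS than RCF (log2 -0.77 ± 0.062, adjusted p = 2.59e-12) and 1.69-fold higher in GS_diff2 than in GS_diff1 (adjusted p = 2.17e-11). Pfkfb4, a related enzyme that can also run the opposite reaction, was scarce, with 26, 35 and 51 counts in GS_diff2, 149, 217 and 50 in GS_diff1, 19, 18 and 11 in GS and 47, 11 and 44 in RCF on its first row, at 117737117 to 117775386 of chromosome 8. That is 1.35, 1.53 and 2.66 CPM in GS_diff2, 7.08, 10.9 and 2.897 CPM in GS_diff1, 0.872, 1.04 and 0.708 CPM in GS and 1.98, 0.564 and 2.08 CPM in RCF. GS_diff1 lay above the other libraries but spread widely. Pfkfb4 was called higher in GS_diff1 than in GS (log2 2.99 ± 0.57, adjusted p = 0.00074) and lower in GS_diff2 than in GS_diff1 (log2 -1.92 ± 0.53, adjusted p = 0.00761). In GS_diff2 with GS (log2 1.07 ± 0.59, adjusted p = 0.132) it was called without GS_diff1 replicate 2 (adjusted p = 0.048), GS_diff1 replicate 3 (adjusted p = 0.028) or RCF replicate 2 (adjusted p = 0.041), and in GS with RCF without RCF replicate 2 (log2 -1.21, adjusted p = 0.0316). Its second row, also on chromosome 8, had 18 counts or fewer in every library. That row was called higher in GS than in RCF (adjusted p = 0.0287), and the call ended without GS replicate 2 (log2 1.57, adjusted p = 0.193), GS replicate 3 (log2 2.10, adjusted p = 0.0705), RCF replicate 2 (log2 1.72, adjusted p = 0.107) or RCF replicate 3 (log2 1.87, adjusted p = 0.099). In GS_diff1 with GS (log2 -1.90 ± 0.88, adjusted p = 0.0617) the second Pfkfb4 row was called without GS replicate 1 (log2 -2.45, adjusted p = 0.0153).

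Messenger RNA of both hypoxia-inducible factors was lower in either medium than in GS. Hif1a, the general oxygen-regulated subunit HIF-1alpha (ENSRNOG00000008292, chromosome 6, 96810907 to 96856052, plus strand), had 122, 131 and 133 CPM in GS_diff2, 169.8, 154 and 161 CPM in GS_diff1, 217, 223 and 229 CPM in GS and 235, 227 and 225 CPM in RCF. GS and RCF overlapped above GS_diff1, and GS_diff2 was lowest. Hif1a was 1.73-fold lower in GS_diff2 than in GS (log2 -0.79 ± 0.040, adjusted p = 4.74e-17), 1.38-fold lower in GS_diff1 than in GS (log2 -0.47 ± 0.040, adjusted p = 1.43e-11) and 1.26-fold lower in GS_diff2 than in GS_diff1 (adjusted p = 2.44e-08). GS with RCF was not called (log2 -0.04 ± 0.039, adjusted p = 0.377), except on library totals alone (log2 -0.14, adjusted p = 0.00207). Epas1 encodes HIF-2alpha, a subunit best known from endothelial and other specialised cells (ENSRNOG00000021318, chromosome 6, 10306405 to 10387265, plus strand). It had 542, 532 and 551 CPM in GS_diff2, 493, 471 and 471 CPM in GS_diff1, 1141, 1113 and 1143 CPM in GS and 151, 153 and 149.7 CPM in RCF. GS was far above all others, RCF was lowest, and no groups overlapped. Epas1 was 7.48-fold higher in GS than in RCF (log2 2.90 ± 0.030, adjusted p = 7.47e-35), then 2.37-fold lower in GS_diff1 (log2 -1.24 ± 0.028, adjusted p = 7.89e-26) and 2.09-fold lower in GS_diff2 (log2 -1.06 ± 0.028, adjusted p = 2.55e-24) than in GS. GS_diff2 exceeded GS_diff1 by 1.13-fold (adjusted p = 1.54e-06). Per kb of gene length, Epas1 was at 231 ± 3.38 CPM in GS and 30.9 ± 0.303 CPM in RCF, beside Hif1a at 56.01 ± 1.56 CPM in GS and 57.5 ± 1.31 CPM in RCF, so the order of the pair differed between GS and RCF.

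Egln enzymes are the prolyl hydroxylases that mark these factors for destruction, and Egln3 is itself a hypoxia target. Egln3 (ENSRNOG00000005053, chromosome 6, 75050329 to 75075795, minus strand) had 248, 248 and 248 CPM in GS_diff2, 90.9, 91.6 and 88.3 CPM in GS_diff1, 117, 110.5 and 114 CPM in GS and 10.9, 10.9 and 12.1 CPM in RCF. All groups were apart from each other. Egln3 was 10.1-fold higher in GS than in RCF (log2 3.34 ± 0.051, adjusted p = 1.71e-30), the largest rise of any member in that comparison. It was 2.18-fold higher in GS_diff2 than in GS (log2 1.12 ± 0.039, adjusted p = 3.79e-21) but 1.26-fold lower in GS_diff1 than in GS (log2 -0.34 ± 0.040, adjusted p = 1.7e-08), and 2.75-fold higher in GS_diff2 than in GS_diff1 (adjusted p = 8.03e-24). Its window above held no match to the searched letters, which says nothing of sites outside it. Egln1, the main oxygen sensor in most cells, had no row of that name. A row on chromosome 19 that the table describes as the rat EGLN1 protein (57662278 to 57699113, minus strand) had 58.2, 59.7 and 55.8 CPM in GS_diff2, 59.7, 57.6 and 56.2 CPM in GS_diff1, 57.02, 57.9 and 62.04 CPM in GS and 35.4, 35.1 and 36.6 CPM in RCF. The 3 groups of GS origin overlapped above RCF. That row was 1.65-fold higher in GS than in RCF (log2 0.72 ± 0.057, adjusted p = 1.84e-12) and was not called in GS_diff2 with GS (adjusted p = 0.71) or GS_diff1 with GS (adjusted p = 0.698). A second row, described as the mouse EGLN1 protein, had 2 counts or fewer in every library. Neither is among the 36 rows counted.

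**Figure D5:**
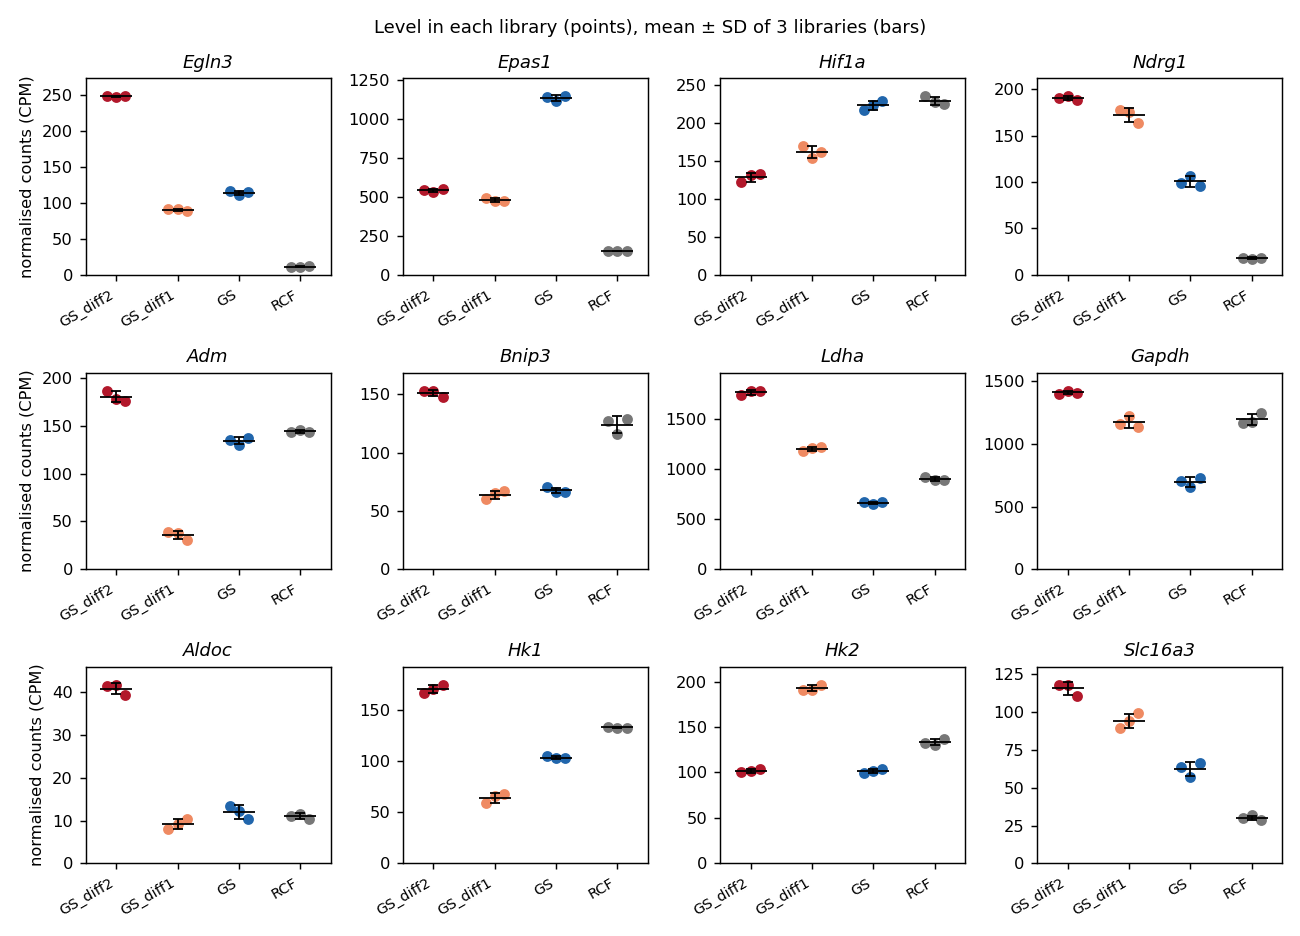
Points give the CPM of 1 library and bars the mean ± SD of 3, for 12 members, with GS_diff2, GS_diff1, GS and RCF from left to right on axes that start at 0. The 3 GS libraries of Epas1 sit at 1113 to 1143 CPM and the 3 RCF libraries of Egln3 at 10.9 to 12.1 CPM.

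Other hypoxia targets were all higher in GS_diff2 than in GS, 7 of 7, where 33.3% of all genes tested were. Their median log2 difference was 0.78, against -2e-04 over all genes tested. In GS_diff1 with GS, 2 were higher and 2 lower, and in GS with RCF 1 was higher and 4 lower. The share called was 57.14% and 71.43% in these 2 comparisons, beside 64.3% and 71.3% of all genes. Ndrg1, a stress-induced protein linked to growth arrest and differentiation (ENSRNOG00000007393, chromosome 7, 107734299 to 107775706, minus strand), had 190.4, 192 and 188 CPM in GS_diff2, 178, 175 and 164 CPM in GS_diff1, 98.9, 107 and 96.2 CPM in GS and 18.4, 16.6 and 18.2 CPM in RCF. Each group lay above the next. Ndrg1 was 5.67-fold higher in GS than in RCF (log2 2.502 ± 0.053, adjusted p = 9.57e-27), 1.71-fold higher in GS_diff1 than in GS (log2 0.78 ± 0.044, adjusted p = 9.23e-16) and 1.89-fold higher in GS_diff2 than in GS (log2 0.92 ± 0.044, adjusted p = 1.08e-17). Adm, the vasodilator peptide adrenomedullin (ENSRNOG00000027030, chromosome 1, 175445088 to 175447259, plus strand), had 187, 179 and 177 CPM in GS_diff2, 38.7, 37.9 and 30.4 CPM in GS_diff1, 136, 130.5 and 138 CPM in GS and 144, 146 and 144 CPM in RCF. GS_diff1 was low and GS_diff2 high, with GS and RCF between them. Adm was 3.76-fold lower in GS_diff1 than in GS (log2 -1.91 ± 0.059, adjusted p = 2.09e-18), 1.35-fold higher in GS_diff2 than in GS (log2 0.43 ± 0.052, adjusted p = 1.5e-07) and 5.05-fold higher in GS_diff2 than in GS_diff1 (log2 2.34 ± 0.058, adjusted p = 2.98e-20), the largest difference among the members between the media. GS with RCF was not called for Adm (log2 -0.10 ± 0.052, adjusted p = 0.0863), but was on library totals alone (log2 -0.20, adjusted p = 0.00147) and without GS_diff1 replicate 3 (adjusted p = 0.0184).

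Bnip3, which drives the removal of mitochondria by autophagy, had 153, 152 and 148 CPM in GS_diff2, 59.8, 65.02 and 66.6 CPM in GS_diff1, 70.2, 66.5 and 66.4 CPM in GS and 127, 116 and 129 CPM in RCF. GS_diff1 and GS were low and overlapped, and GS_diff2 was highest. Bnip3 was 2.23-fold higher in GS_diff2 than in GS (log2 1.16 ± 0.048, adjusted p = 3.51e-19), 2.37-fold higher than in GS_diff1 (adjusted p = 6.55e-20) and 1.83-fold lower in GS than RCF (log2 -0.87 ± 0.048, adjusted p = 3.8e-16), with no call in GS_diff1 with GS (adjusted p = 0.124). P4ha1 and P4ha2 encode the catalytic subunits of collagen prolyl hydroxylase, which fibroblasts need to make stable collagen, and they moved apart. P4ha1 had 489, 499 and 511 CPM in GS_diff2, 754, 724 and 705 CPM in GS_diff1, 456, 457 and 478 CPM in GS and 566, 554 and 559.8 CPM in RCF. GS_diff1 was the high group. P4ha1 was 1.57-fold higher in GS_diff1 than in GS (log2 0.65 ± 0.030, adjusted p = 5.39e-18), 1.08-fold higher in GS_diff2 than in GS (adjusted p = 0.00205) and 1.46-fold lower in GS_diff2 than in GS_diff1 (adjusted p = 4.24e-16). P4ha2 had 510.2, 519.9 and 508 CPM in GS_diff2, 174, 188 and 189 CPM in GS_diff1, 303, 293 and 285 CPM in GS and 373, 361 and 371 CPM in RCF. In this gene GS_diff1 was the low group and GS_diff2 the high one. P4ha2 was 1.60-fold lower in GS_diff1 than in GS (log2 -0.68 ± 0.034, adjusted p = 5.09e-17), 1.75-fold higher in GS_diff2 than in GS (log2 0.80 ± 0.033, adjusted p = 3.2e-19) and 2.79-fold higher in GS_diff2 than in GS_diff1 (adjusted p = 1.3e-25). Kdm3a, a histone demethylase, averaged 60.5 ± 2.304 CPM in GS_diff2, 44.3 ± 2.41 CPM in GS_diff1, 46.01 ± 1.88 CPM in GS and 70.7 ± 3.32 CPM in RCF, and was 1.31-fold higher in GS_diff2 than in GS (adjusted p = 8.05e-07). Ankrd37, an ankyrin repeat protein, averaged 2.85 ± 0.297 CPM in GS_diff2, 2.44 ± 0.398 CPM in GS_diff1, 1.64 ± 0.6101 CPM in GS and 1.21 ± 0.0741 CPM in RCF. Its call in GS_diff2 with GS (log2 0.78 ± 0.30, adjusted p = 0.0248) ended without GS_diff2 replicate 2 (log2 0.71, adjusted p = 0.0812) and without GS replicate 3 (log2 0.53, adjusted p = 0.147). In GS_diff1 with GS it was called when GS replicate 1 was left out (log2 0.83, adjusted p = 0.0435).

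Further genes of both pathways, and some around them, were read from 2 lists. Of 32 other glycolysis genes, 30 matched a row and 22 were tested. The list also held genes that act against or beside glycolysis, such as Fbp2, Pck2 and Pdk4. The 22 genes tested showed no common direction. In GS_diff2 compared with GS, 7 were higher and 6 lower. The counts were 6 and 6 in GS_diff1 against GS, 6 and 8 in GS_diff2 against GS_diff1, and 9 and 9 in GS against RCF. In the same order, the share called was 59.09, 54.55, 63.64 and 81.82%, beside 67.0, 64.3, 63.7 and 71.3% of all genes tested. Eno3, the muscle enolase, averaged 39.9 ± 0.777 CPM in GS_diff2, 72.2 ± 2.01 CPM in GS_diff1, 50.99 ± 0.646 CPM in GS and 5.53 ± 0.359 CPM in RCF, 9.19-fold higher in GS than in RCF (adjusted p = 8.66e-26). Slc16a7, another monocarboxylate transporter, averaged 16.2 ± 1.56 CPM in GS_diff2, 4.03 ± 0.748 CPM in GS_diff1, 6.42 ± 0.563 CPM in GS and 2.58 ± 0.396 CPM in RCF, 2.52-fold higher in GS_diff2 than in GS (adjusted p = 3.01e-08). Pck2, the mitochondrial enzyme that makes phosphoenolpyruvate, averaged 58.5 ± 2.43 CPM in GS_diff2, 185 ± 5.29 CPM in GS_diff1, 215 ± 2.83 CPM in GS and 37.9 ± 1.18 CPM in RCF, and was 3.67-fold lower in GS_diff2 than in GS (adjusted p = 3.77e-26). Pdk4, the kinase of Pdk1's family that is raised in fasting, was 3.53-fold higher in GS_diff1 than in GS (adjusted p = 4.87e-07), at 4.16 ± 0.896 CPM in GS_diff1 against 1.18 ± 0.246 CPM in GS. Pfkfb1 was 3.399-fold higher in GS_diff1 than in GS (adjusted p = 4.65e-07) at 7.12 ± 0.572 CPM in GS_diff1 against 2.09 ± 0.248 CPM in GS, and Gapdhs, the sperm form of Gapdh, was 2.30-fold lower (adjusted p = 0.0113) at 0.777 ± 0.2198 CPM in GS_diff1 against 1.79 ± 0.669 CPM in GS. Hk3, a hexokinase of white blood cells, was at 0 in 2 of the 3 GS_diff2 libraries and in all GS_diff1 and GS libraries. It averaged 1.796 ± 0.444 CPM in RCF, where the sum of the leukocyte markers was also higher, and their part was not tested. Fbp2, the muscle fructose bisphosphatase that runs a step in reverse, averaged 0.551 ± 0.0536 CPM in GS_diff2, 2.37 ± 0.347 CPM in GS_diff1 and 1.303 ± 0.386 CPM in GS, and was at 0 in 2 of the 3 RCF libraries.

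Of 41 other hypoxia genes, all matched a row and 39 were tested. Here 19 were higher and 16 lower in GS_diff2 than in GS, and 13 and 21 in GS_diff1 against GS. The counts were 20 and 10 in GS_diff2 against GS_diff1, and 21 and 15 in GS against RCF. In the same order, the share called was 89.74, 87.18, 76.92 and 92.31%, beside 67.0, 64.3, 63.7 and 71.3% of all genes tested. Car9 and Car12 encode carbonic anhydrases on the cell surface, which handle acid made by glycolysis. Car9 averaged 113 ± 1.5 CPM in GS_diff2, 84.2 ± 1.93 CPM in GS_diff1, 30.6 ± 3.15 CPM in GS and 2.89 ± 0.518 CPM in RCF, so the 4 groups kept the order of Ndrg1. Car12 averaged 17.2 ± 1.47 CPM in GS_diff2, 1.68 ± 0.367 CPM in GS_diff1, 4.24 ± 0.426 CPM in GS and 0.4305 ± 0.192 CPM in RCF, and was 10.3-fold higher in GS_diff2 than in GS_diff1 (adjusted p = 3.61e-14). Edn1, the vasoconstrictor endothelin, averaged 4.22 ± 0.393 CPM in GS_diff2, 54.3 ± 2.21 CPM in GS_diff1, 73.2 ± 4.25 CPM in GS and 12.6 ± 1.17 CPM in RCF, and was 17.3-fold lower in GS_diff2 than in GS (adjusted p = 4.06e-26). Stc2, a secreted glycoprotein, averaged 7.35 ± 1.35 CPM in GS_diff2, 6.67 ± 1.14 CPM in GS_diff1, 62.4 ± 3.96 CPM in GS and 32.1 ± 1.48 CPM in RCF, 8.47-fold lower in GS_diff2 and 9.31-fold lower in GS_diff1 than in GS (adjusted p = 2.34e-18 and 1.73e-18). Angptl4, an inhibitor of lipoprotein lipase, averaged 2.78 ± 0.378 CPM in GS_diff2, 6.998 ± 0.0422 CPM in GS_diff1, 23.0 ± 1.72 CPM in GS and 480.4 ± 7.57 CPM in RCF, 20.8-fold lower in GS than RCF (adjusted p = 6.45e-34). Ppp1r3c, which targets a phosphatase to glycogen, averaged 20.5 ± 2.12 CPM in GS_diff2, 3.03 ± 0.953 CPM in GS_diff1, 10.99 ± 1.77 CPM in GS and 7.599 ± 0.732 CPM in RCF, and was 6.74-fold higher in GS_diff2 than in GS_diff1 (adjusted p = 4.14e-14). Anln, a cell division protein also listed among hypoxia genes, was 3.41-fold higher in GS_diff1 than in GS (adjusted p = 1.49e-24), at 217 ± 8.42 CPM in GS_diff1 against 63.7 ± 4.35 CPM in GS. It was highest in GS_diff2, at 402 ± 10.8 CPM, and averaged 88.0 ± 3.32 CPM in RCF.

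The differentiated groups were also set against the parental fibroblasts, with the same RCF libraries in both comparisons. In GS_diff2 compared with RCF, 21 of the 36 rows were higher and 9 lower, with 72.5% of all genes called (37.1% higher). In GS_diff1 compared with RCF, 17 were higher and 14 lower, with 75.4% of all genes called (38.0% higher). At 2-fold or more, 7 members were higher and none lower in GS_diff2, where 16.6% of all genes tested were higher and 12.5% lower (29.2% in either direction). In GS_diff1, 7 were higher and 5 lower, against 16.7% and 15.9% of all genes tested (32.6% in either direction). Among the enzymes, 10 were higher and 5 lower in GS_diff2, and 8 were higher and 7 lower in GS_diff1. That was 83.33% of the 18 enzyme rows in each comparison, beside 72.5% and 75.4% of all genes. Ldha was 1.96-fold higher in GS_diff2 (log2 0.97 ± 0.025, adjusted p = 1.4e-24) and 1.33-fold higher in GS_diff1 than in RCF (adjusted p = 2.59e-15). Gapdh was 1.18-fold higher in GS_diff2 (adjusted p = 5.67e-06), and GS_diff1 with RCF was not called for it (adjusted p = 0.486). Aldoa, Gpi and Pfkp were lower than in RCF in both. Slc16a3 was 3.85-fold higher in GS_diff2 and 3.13-fold higher in GS_diff1 (adjusted p = 4.32e-23 and 3.15e-21). Egln3 was 21.99-fold higher in GS_diff2 (log2 4.46 ± 0.050, adjusted p = 5.8e-34) and 8.005-fold higher in GS_diff1 (log2 3.00 ± 0.051, adjusted p = 2.25e-29), and Ndrg1 was 10.7-fold and 9.71-fold higher. Epas1 kept 3.58-fold in GS_diff2 and 3.16-fold in GS_diff1 over RCF, while Hif1a was 1.78-fold lower in GS_diff2 and 1.42-fold lower in GS_diff1 than in RCF. In GS_diff1, Aldoc lost its call against RCF (log2 -0.27, adjusted p = 0.0266) without GS_diff1 replicate 1 or 2 or RCF replicate 1 or 2 (log2 -0.27 to -0.18), and Eno2 (log2 -1.99, adjusted p = 0.0276) without GS_diff1 replicate 1 (log2 -1.71) or 3 (log2 -1.97). In GS_diff2, Pfkm (log2 0.15, adjusted p = 0.0197) was not called without GS_diff2 replicate 3 (adjusted p = 0.0514) or RCF replicate 3 (log2 0.11, adjusted p = 0.134), and the second Pfkfb4 row was called without RCF replicate 1 (log2 3.22, adjusted p = 0.0474).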

How the data were processed

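Per the labels' protocols, RNeasy columns gave the RNA of 12 cultures and Ovation RNA-seq System v2 reagents gave the libraries. Values in the authors' deposited table are raw read counts for each gene, beside its length, which was used for levels per kb. The submitters' processing notes name Bowtie 0.12.2 and the builds mm8 and Rnor_6.0. The sources used here do not give the counting program, the annotation or the use of strand, so near-identical copies and antisense genes may share reads.

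Counts were scaled with TMM and fitted in edgeR 4.0.16 (quasi-likelihood, robust, filterByExpr, 1 term per group over 12 libraries) under R 4.3.3. Contrasts were two-sided, with Benjamini-Hochberg adjustment over 14399 genes at 0.05. A ± after a log2 value is a standard error from the F statistic. Alternatives used library totals, RLE, DESeq2 1.42.0, limma 3.58.1 (voom), other filters, only both groups' libraries, a replicate block and leaving out each library. Replicates differed beyond sampling noise in all 12 pairs within groups (chi-square per degree of freedom 4.44 to 7.57). Named with values in each library were 11 preset members and the 4 largest called rises and falls per main comparison at 1 CPM or more, and per related list the top 3 changes. The members and all lists were chosen with earlier results of these data known.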

Additional observations from a re-analysis of the deposited data

How the results depend on the processing

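Of 216 member comparisons, 184 kept their side of the threshold in every alternative run that tested the row, 32 changed in at least 1, and none reversed. Some runs did not test every row. Every count of members called in a comparison stayed within 1.5 times its value. Leaving out 1 library at a time gave 6 to 7 higher and 18 to 20 lower members in GS with RCF, 14 to 17 higher and 9 lower in GS_diff1 with GS, and 23 to 26 higher and 3 to 4 lower in GS_diff2 with GS. GS_diff2 with GS_diff1 gave 23 to 25 and 6, GS_diff1 with RCF 17 and 12 to 14, and GS_diff2 with RCF 20 to 22 and 9. Library totals as the only scaling made 8 more calls and ended none, and moved the median of all genes in GS with RCF to -0.13. Same-numbered deviations correlated weakly, at -0.06 to 0.09, and 7 of 12 libraries correlated best with their own number. Whether replicate numbers pair the libraries was not tested. The replicate block ended the calls of the second Pfkfb4 row in GS with RCF (log2 2.18, adjusted p = 0.0543) and the second Pkm row in GS_diff1 with GS (log2 0.87, adjusted p = 0.0877), and added Tpi1 in GS_diff2 with GS (log2 0.89, adjusted p = 0.0437). Adding annotated copies, chosen after seeing the data, ended 3 calls, all of Slc2a3. Of 144 group levels, 47 moved by more than 1 SD with library totals, and 44 of 60 isozyme shares did with no length scaling. The causes were not tested.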
